A study of Mus musculus with 2 samples.

Results

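The 8 genes Hand2, Ret, Gfra1, Ednrb, Elavl2, Elavl4, Stmn2 and Chat mark the enteric neural crest and the neurons it forms, and each of them was named at 1 or more cJUN peaks of the embryonic mouse intestine. They were chosen by the deposited table's own peak calls and gene distances, since each is named there among the nearest genes of a peak, so being listed is not a result. They account for 15 of 2741 peaks, 5 at Hand2, 2 each at Gfra1, Ednrb and Elavl2, and 1 each at Ret, Elavl4, Stmn2 and Chat. Of 21896 protein-coding genes in the gene table used, 12.5% were listed at a peak. Since the members all are, their further counts are set beside the 2744 listed genes, with the share of all protein-coding genes given as background from which nothing is read.

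The peaks come from chromatin immunoprecipitation followed by sequencing of cJUN, which binds DNA as part of AP-1 dimers. The chromatin was from whole intestines of C57BL/6 wild type mice at E14.5, from 1 litter of 8 embryos, which were cultured for 24 h on transwells. The group precipitated with the cJUN antibody and the input group, sonicated DNA without antibody, were 1 library each of the same strain, age, genotype and culture. There was no replicate, no tissue of another condition or genotype to compare with, and no transcript measurement. Values therefore have no replicate error, no test was made, and the labelled organ could not be checked against marker expression. Neural crest derivatives are a minority of a whole intestine, and the peaks cannot be assigned to them or to any other cell type.

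The enteric nervous system is built by neural crest cells that enter the foregut and migrate along the gut while they divide and differentiate. The receptor tyrosine kinase Ret with its co-receptor Gfra1 responds to the ligand Gdnf, and the endothelin receptor Ednrb responds to endothelin 3, and loss of either pathway leaves part of the gut without ganglia. Hand2 is a basic helix-loop-helix factor required for the differentiation of enteric neurons, and it is also used in gut mesenchyme. Elavl2 and Elavl4 encode neuronal RNA-binding proteins of the Hu family, Stmn2 a microtubule regulator of growing axons, and Chat the enzyme that makes acetylcholine.

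The distances of the table are printed here as upstream or downstream of a gene's start. The header does not define the sign, but among the 900 genes named at several peaks, 896 had a single start position to within 2 bp under exactly 1 of the possible readings of the sign. Of the 669 of these with a strand in the promoter table, 664 (99.3%) took the reading of that strand, so a negative distance was read as upstream along the gene. In 319 of 319 pairs of genes named together at 2 or more peaks, the sum of both distances was constant to within 2 bp, which places each of these peaks between the starts of the pair. All positions of peaks are as deposited, on the mouse build mm9. Fold is the enrichment over background given by the authors' caller. The score, also theirs, is 10 times the −log10 of the peak's p-value.

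The promoters of 2 genes are shown because Hand2 holds the most peaks of the set while Ednrb is the one with peaks on both sides. They are the 250 bases before the start from RefSeq on GRCm38.p6, written 5′ to 3′ along the gene. Whether the deposited distances, made on mm9, count from the same starts is not known. Hand2 is at chr8:57320733-57320982 on the plus strand, and Ednrb is at chr14:103843702-103843951 on the minus strand. No capitals are used, because neither searched motif occurs in them.
Hand2: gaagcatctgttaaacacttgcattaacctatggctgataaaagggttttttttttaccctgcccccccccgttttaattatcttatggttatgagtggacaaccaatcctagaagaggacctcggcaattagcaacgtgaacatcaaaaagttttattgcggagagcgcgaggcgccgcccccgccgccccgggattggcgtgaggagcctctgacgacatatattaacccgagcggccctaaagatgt
Ednrb: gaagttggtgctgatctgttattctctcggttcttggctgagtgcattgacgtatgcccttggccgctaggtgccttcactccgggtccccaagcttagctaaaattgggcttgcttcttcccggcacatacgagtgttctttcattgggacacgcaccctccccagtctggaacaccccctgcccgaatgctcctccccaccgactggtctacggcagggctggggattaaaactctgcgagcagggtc
The AP-1 motif TGANTCA, which reads the same on both strands, was looked for in windows from 250 bases before to 50 bases after a start, as was the related motif TGACGTCA. Windows were available for 6 of the 8 genes, 14 windows in all, and 0 of them held either motif. Ret and Stmn2 had no window, so the count does not cover them. Among all 32851 windows, TGANTCA was in 7.81% and TGACGTCA in 1.79%. The 2 motifs cannot occupy the same bases. The letters under the peaks themselves were not analysed here.

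**Figure D1:**
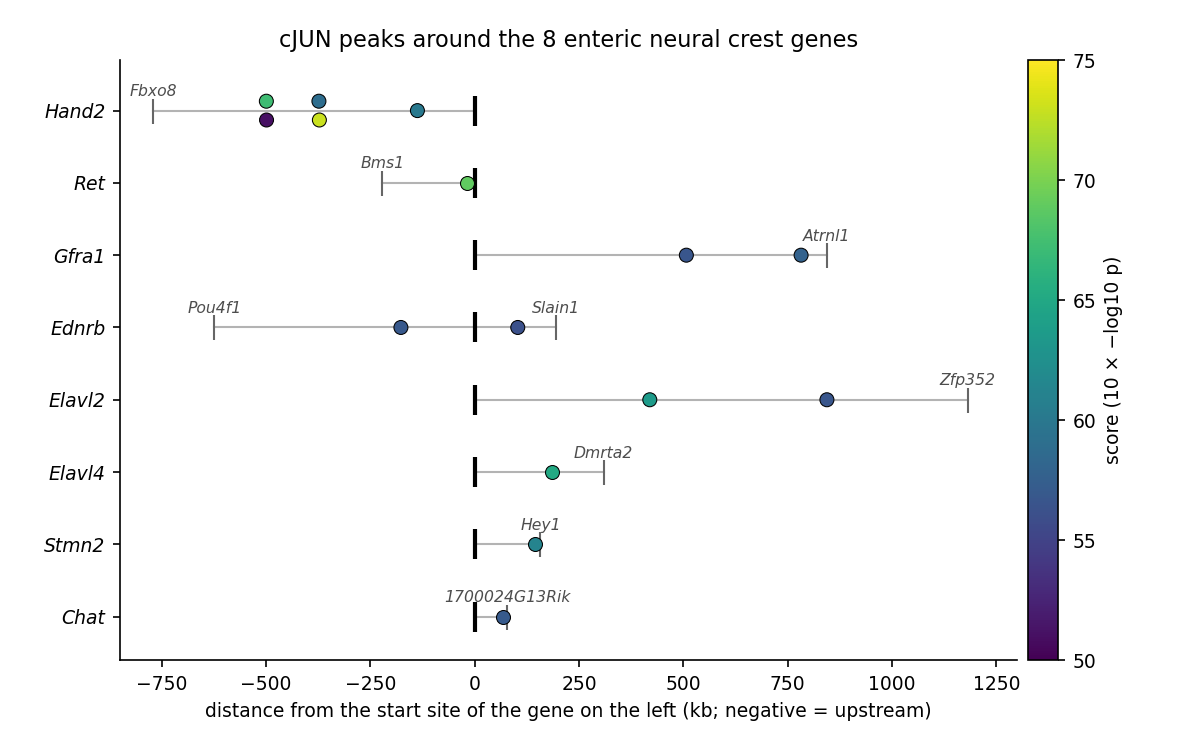
Position of the 15 peaks (circles, colour for the score) relative to the start site of each gene (black bar), in kb with upstream to the left; grey bars mark the start of the gene named with it at the same peak, and the 2 pairs of close peaks at Hand2 are drawn one above the other. The 5 Hand2 peaks lie upstream, those of Gfra1, Elavl2, Elavl4, Stmn2 and Chat downstream, and the Ret peak is the nearest at 17.9 kb.

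Hand2 had the most peaks of the 8 genes, and all 5 lay upstream of its start, in the interval shared with Fbxo8, an F-box protein gene. The farthest pair was at chromosome 8 from 59300432 to 59300604 (fold 15.29, score 67.2) and from 59300887 to 59301037 (fold 14.66, score 50.98), 499262 and 498818 bp upstream. The next pair was from 59426426 to 59426573 (fold 18.42, score 58.82) and from 59427520 to 59427699 (fold 18.42, score 72.99), 373280 and 372170 bp upstream. These pairs hold both the highest score of the 15 peaks, 72.99, and the lowest, 50.98, which is close to the lowest of the whole list, 50.01. The last peak stood alone, from 59662491 to 59662632, 137218 bp upstream (fold 14.74, score 60.15).

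The 5 Hand2 peaks amount to 3 sites. The gap within the first pair was 283 bp and within the next 947 bp, while 125 and 235 kb separated the sites. A neighbour within 1 kb was found for 4 of the 15 peaks (26.7%), all at Hand2, and for 190 of 2741 peaks (6.93%) overall. The gap of 283 bp is shorter than the average sheared fragment of about 500 bp. From the first to the last peak the group covered 362 kb.

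Fbxo8 was named at the same 5 peaks and was the nearer gene at the farthest pair, 270631 and 271075 bp away on its downstream side. Hand2 was the nearer gene at the other 3, where Fbxo8 lay 396613, 397723 and 632675 bp away. The interval between the starts of Hand2 and Fbxo8 measured 770 kb. There were 191 intervals with a peak and a length within 20% of this one, itself included. Of these, 4 held 5 or more peaks, again with this one included, the median held 1 and the highest 23.

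Counted peak by peak, few genes were listed as often as Hand2. At 5 or more peaks there were 61 protein-coding genes, or 0.279% of all and 2.22% of the 2744 that were listed. Peaks within 1 kb were not joined in these counts, and when joined those of Hand2 amount to 3 sites. Exactly 3 peaks, also not joined, were listed at 169 protein-coding genes. Of the 29 others with exactly 5, those most like Hand2 in median distance (373 kb) were Arhgef26, a guanine nucleotide exchange factor gene (362 kb), Fbxo8 through the same peaks (397 kb), and Tecrl (332 kb). The likeness is the absolute difference of log10 median distance, 0.0131, 0.0263 and 0.0504 over 5 peaks each. Their median scores were 59.25 at Arhgef26, 60.15 at Fbxo8 and 64.56 at Tecrl, and that of Hand2 was 60.15.

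The receptor genes of the Gdnf pathway differed in where their peaks lay. Ret had the closest peak of the 8 genes, 17909 bp upstream at chromosome 6 from 118165596 to 118165746, with a length of 150 bp, a fold of 18.42 and a score of 68.9. It was also the only one of the 8 with a peak within 50 kb, a distance found for 35.6% of the listed genes and 4.46% of all protein-coding genes. Its neighbour Bms1, a ribosome biogenesis factor gene, lay 203764 bp away, and the next peak on the chromosome was 576 kb off. The score ranked at the 76.6th percentile of the list, second in the set after the strongest Hand2 peak.

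Gfra1, which encodes the co-receptor that binds Gdnf, had both peaks far downstream and nearer to Atrnl1, an attractin-like gene. The peak at chromosome 19 from 58021724 to 58021844 (fold 16.89, score 56.7) was 507298 bp from Gfra1 and 336260 bp from Atrnl1. The other, from 57746718 to 57746870 (fold 18.42, score 57.75), was 782288 bp from Gfra1 and 61270 bp from Atrnl1. Gfra1 is thus listed only as the farther of 2 genes, in an interval of 844 kb.

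Ednrb, the endothelin receptor gene, was the one gene of the 8 with a peak on each side. Downstream, a peak at chromosome 14 from 104140056 to 104140201 (fold 20.1, score 56.23) lay 103261 bp from Ednrb and 90684 bp from Slain1, a microtubule-associated gene. Upstream, a peak from 104420096 to 104420252 (fold 14.74, score 56.93) lay 176784 bp from Ednrb and 447034 bp from Pou4f1, which encodes a POU factor of sensory neurons. The downstream peak had the higher fold and the slightly lower score, and both scores were in the lower part of the list, the downstream one at the 11.5th percentile.

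The neuronal RNA-binding genes Elavl2 and Elavl4 had 3 peaks, all downstream. At Elavl2 the nearer peak, at chromosome 4 from 90646930 to 90647096 (fold 17.59, score 63.6), was 419662 bp away. The farther one, from 90222422 to 90222573 (fold 14.17, score 56.7), was 844177 bp away, the longest distance among the 15, and closer to the zinc finger gene Zfp352 at 336987 bp. Zfp352 was also the co-listed gene of the nearer peak, at 761502 bp, and the interval of 1180 kb between both genes was the longest of the set. Elavl4 had the highest fold of the set, 22.11, at chromosome 4 from 109774950 to 109775071. That peak scored 65.07 and was 184483 bp from Elavl4 and 124353 bp from Dmrta2, a DMRT-family transcription factor gene.

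Stmn2 and Chat were each named at 1 peak that lay close to another gene. The Stmn2 peak, at chromosome 3 from 8654683 to 8654819 (fold 18.42, score 61.3), was 145224 bp downstream of Stmn2 and 12288 bp from Hey1, a transcriptional repressor gene and Notch target. The Chat peak, at chromosome 14 from 33212184 to 33212336 (fold 13.37, score 57.03), was 66835 bp downstream of Chat and 10.7 kb upstream of 1700024G13Rik. It had the lowest fold of the 15. Its interval, 77.5 kb, was the shortest of the set, and no other peak lay within 1270 kb of it.

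**Figure D2:**
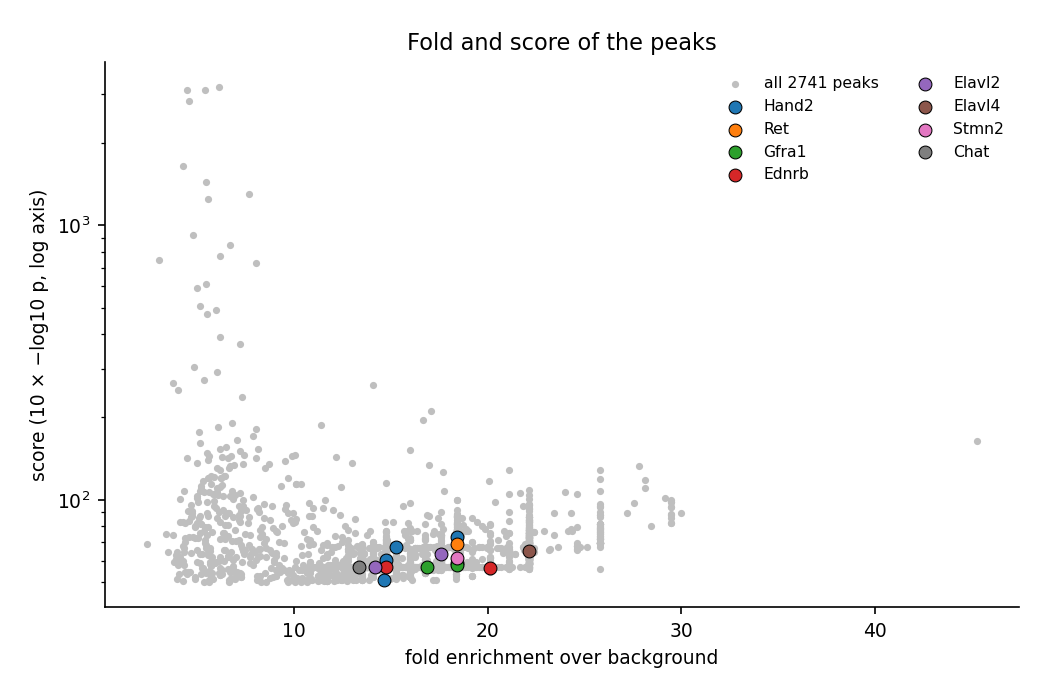
Fold enrichment (x axis) against score (y axis, log scale) for all 2741 peaks (grey) and the 15 peaks of the 8 genes (coloured by gene). The 15 peaks lie between folds of 13.37 and 22.11 and scores of 50.98 and 72.99, and none reaches a score of 100.

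The 15 peaks had ordinary strength for this list. Their median fold was 17.59 (quartiles 14.74 and 18.42), against 16.75 (14.07 and 18.42) for the other 2726 peaks. Their median score was 58.82 (quartiles 56.81 and 64.33), against 61.3 (57.34 and 68.2). Scores of 60 or more were found at 7 of 15 peaks (46.7%) and at 1536 of 2741 (56.0%). With that limit, 5 of the 8 genes were still listed, Hand2, Ret, Elavl2, Elavl4 and Stmn2, as were 64.1% of the listed genes and 8.04% of all protein-coding genes. At a limit of 100, the counts were 0 of 15 and 127 of 2741 (4.63%).

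Like most peaks of the list, the 15 peaks were short and lay outside dense clusters. All 15 had a fold of at least 10, as did 87.9% of all peaks, and 0 of 15 lay in a dense cluster, meaning 5 or more peaks with no gap above 100 kb, and such clusters held 7.84% of all peaks. Lengths ran from 120 to 179 bp with a median of 150 bp, against 149 bp for the others. The fold was exactly 18.42 at 5 of the 15 peaks (33.3%), 2 at Hand2 and 1 each at Ret, Gfra1 and Stmn2. That value was shared by 653 of 2741 peaks (23.8%), so these peaks are tied in fold.

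**Figure D3:**
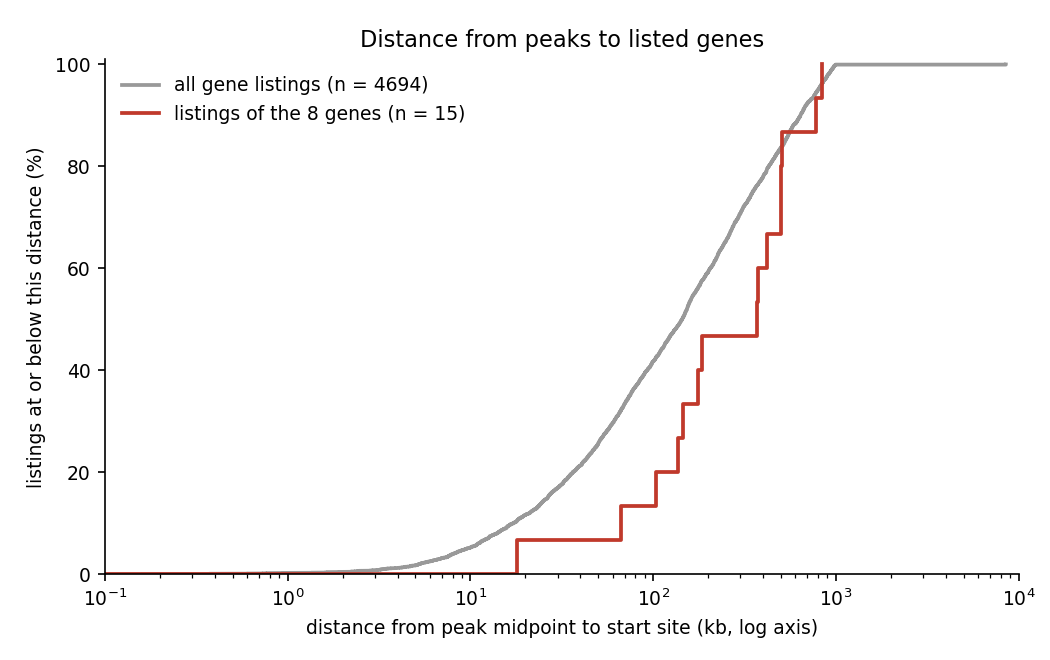
Cumulative share of gene listings (y axis, percent) by distance from peak to start site (x axis, kb, log scale) for all 4694 listings (grey) and the 15 listings of the 8 genes (red). The red line lies to the right of the grey one up to about the 500 kb mark, with medians of 372 and 144 kb.

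The genes lay far from their peaks. The median distance of the 15 listings was 372 kb (quartiles 141.2 and 499), against 144 kb (quartiles 48.9 and 351) over all 4694 listings, and with the close Hand2 peaks counted once it was 184.5 kb. Taking only the nearest peak of each gene, the median was 141.2 kb over the 8 genes, against 83.55 kb over the 2736 other listed protein-coding genes. Within 100 kb, only Ret and Chat of the 8 had a peak, against 54.5% of the listed genes (6.83% of all protein-coding genes). A distance of 5 kb or less was found at 0 of the 15 listings and at 1.73% of all listings.

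In most cases the member was not the closest gene. Of the 15 listings, 6 (40%) named it as the nearer of 2 genes, where the share over such peaks is 50% by construction. Hand2, Ret, Ednrb and Elavl2 were the nearer gene at some peak, as were 60.7% of the listed genes (7.60% of all protein-coding genes). Gfra1, Elavl4, Stmn2 and Chat were never the nearer gene. Upstream listings were 7 of 15 (46.7%), of which 5 at Hand2 and 1 each at Ret and Ednrb, against 48.1% of all listings.

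**Figure D4:**
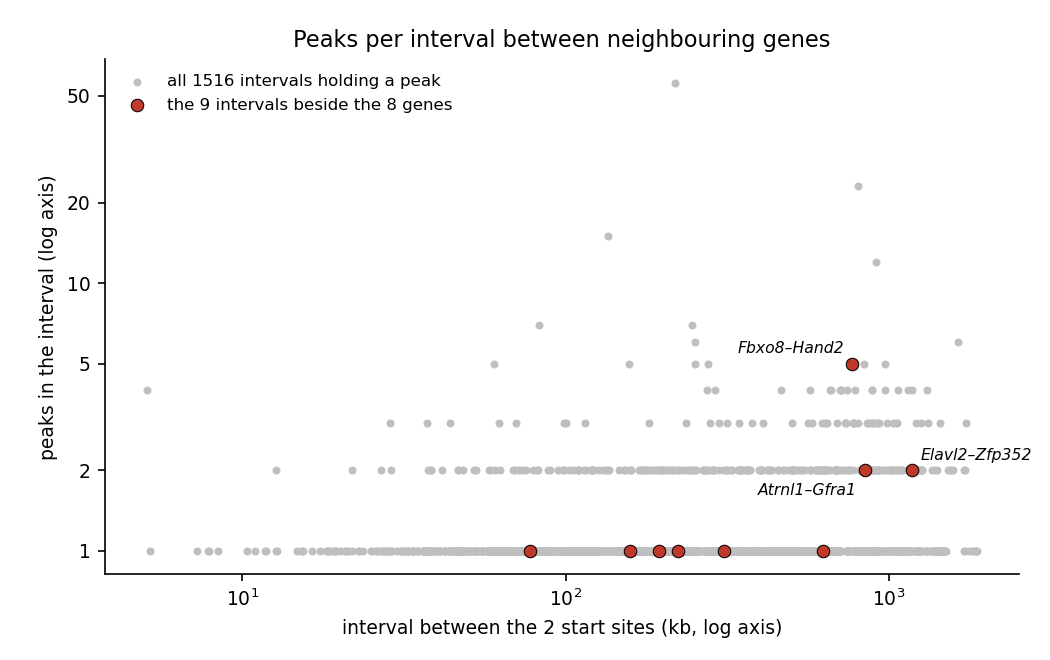
Number of peaks (y axis, log scale) against the length of the interval between the start sites of the 2 genes named at a peak (x axis, kb, log scale), for 1516 intervals with a peak (grey) and the 9 beside the 8 genes (red). The interval of Hand2 and Fbxo8 holds 5 peaks, those of Gfra1 with Atrnl1 and Elavl2 with Zfp352 hold 2, and the other 6 hold 1.

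The intervals that held the peaks were of mixed length. The 9 intervals between the members and their co-listed genes ran from 77.5 to 1180 kb with a median of 309 kb, against 251 kb over all 1516 intervals with a peak. The intervals with more than 1 peak were the 3 longest, 770 kb at Hand2, 844 kb at Gfra1 and 1180 kb at Elavl2, at the 83.5th, 85.9th and 94.7th percentile of length. In all, 4 of the 8 genes had 2 or more peaks, as did 851 of the 2744 listed genes (31%), or 3.89% of all protein-coding genes. A longer interval can hold more peaks, and the part of length in these counts was not tested.

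**Figure D5:**
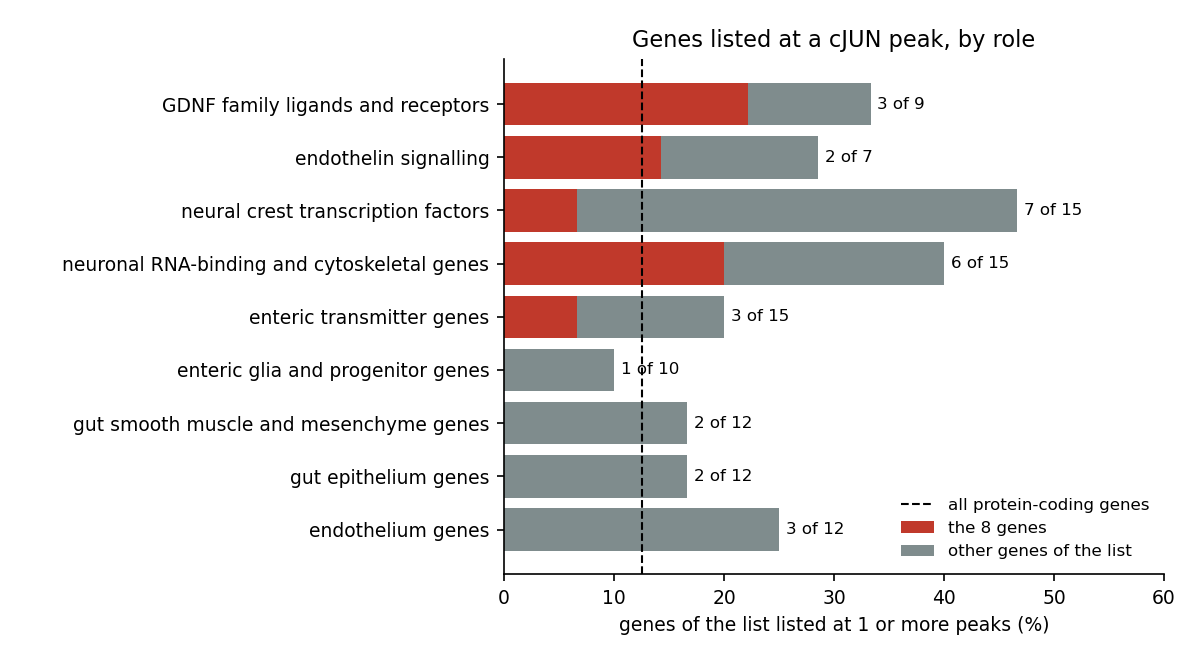
Share of the genes of each list that were named at 1 or more peaks (x axis, percent), with the 8 genes in red, other genes in grey and the count at the bar; the dashed line is the share of all protein-coding genes, 12.5%. The transcription factor list has 7 of 15 genes and the glia and progenitor list 1 of 10. The red parts had to be listed, so a bar with red cannot be compared with the dashed line.

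The wider set of enteric neural crest genes was read from 6 lists by role, of 69 genes in all, drawn up with earlier results of these data known. Of these, 21 (30.4%) were listed at a peak, and of the 61 genes other than the members, 13 (21.3%), against 12.5% of protein-coding genes. The first of these counts includes the members, which had to be listed. The second leaves them out, but its genes too were chosen with earlier results known. Nothing is therefore read from its difference to all genes. Of the same 61 genes, 3 (4.92%) had a peak within 100 kb, against 6.83% of protein-coding genes, and 9 (14.8%) were the nearer gene at some peak, against 7.60%. None of these differences was tested.

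Among ligands and receptors, the Gdnf family list had 3 of 9 genes at a peak, Ret, Gfra1 and the ligand gene Gdnf itself. The Gdnf peaks were at chromosome 15, one from 7877134 to 7877320, 116216 bp downstream (fold 22.11, score 71.46), and one from 7498204 to 7498360, 262729 bp upstream (fold 13.4, score 53.93). The endothelin list had 2 of 7, Ednrb and the ligand gene Edn2, whose peak lay 102782 bp downstream (fold 22.11, score 67.72). Edn3, the ligand that acts on Ednrb in the gut, was not listed at a peak.

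Among transcription factors, 7 of 15 genes were listed, among them Hand2, Pax3, Foxd3, Tfap2b, Gata3 and Isl1. Pax3, a paired-box factor of early neural crest, had a peak 44.4 kb away with a score of 56.7. Tfap2b, Gata3 and Isl1 had 2, 2 and 3 peaks, with the highest score at Isl1, 130.66, where the fold was 6.04. Sox10, a central factor of enteric progenitors, was not listed.

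Neuronal, transmitter and glial genes were each represented. Of 15 neuronal RNA-binding and cytoskeletal genes, 6 were listed, the members Elavl2, Elavl4 and Stmn2 with Nefm (3 peaks, the nearest at 133 kb), Gap43 (765 kb) and Map2 (372 kb). Of 15 transmitter genes, 3 were listed, Chat, the choline transporter gene Slc5a7 with 3 peaks (the nearest at 171 kb, the highest score 76.72) and the tachykinin gene Tac1 (269 kb, score 66.77). Of 10 glia and progenitor genes, Foxd3 alone was listed, at 275 kb with a score of 56.54, and it is counted with the transcription factors too. For other cell types of the organ, 2 of 12 smooth muscle and mesenchyme genes (Vim, Twist1), 2 of 12 epithelium genes (Shh, Esrp1) and 3 of 12 endothelium genes (Cdh5, Flt1, Tek) were listed. The counts of the neural crest lists, except glia and progenitors, include members, which had to be listed. Without the members they were 1 of 7 Gdnf family, 1 of 6 endothelin and 6 of 14 transcription factor genes. They were 3 of 12 for the neuronal and 2 of 14 for the transmitter genes. The share over all protein-coding genes was 12.5%, and no difference of a list to it was tested. With so few genes a list, the counts do not separate the neural crest from the other cell types.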

How the data were processed

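The data are 1 table of cJUN peaks from 1 immunoprecipitate and 1 input library. Per the submitters' processing notes, Bowtie 1.1.0, MACS 1.4 and mm9 were used; filters on reads, the handling of duplicate reads, the peak threshold and the tool that assigned genes are not given in the sources used here, and each can change which weak peaks are listed. The fold is a ratio over background and the score is 10 times the −log10 p-value, both deposited by the authors per peak, per the file headers. Positions, lengths and signed distances are deposited in bp. Read totals were not used here, so depth is unknown.

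Peaks were taken where the table names 1 of the 8 genes. The members and the role lists were chosen with earlier results of these data known. With 1 library a group no test was made; values were ranked within the list with Python 3.11.15 and pandas 2.3.3. Symbols were matched to a RefSeq table of GRCm38.p6 (names and biotypes only), and 2869 of 2963 names matched. The reading of the sign was tested on simulated data. The text names all 8 genes with every peak and co-listed gene, the role list genes at a peak (some are not reported here), and the 3 genes most like Hand2; Edn3 and Sox10 were named after their values were seen. Alternatives were limits on score, fold and distance, the nearer gene only, joining peaks within 1 kb, leaving out clusters, and exact symbols. Positions relative to exons and introns were not analysed here.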

Additional observations from a re-analysis of the deposited data

How the results depend on the processing

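The number of peaks at the 8 genes, 15, was 7 with a score of at least 60, 0 with at least 100, 6 with the nearer gene only, 1 within 50 kb and 2 within 100 kb. The number of these genes listed, 8, was 5, 0, 4, 1 and 2 under the same limits. Their median distance, 372.2 kb, was 184.5 kb with a score of at least 60, 184.5 kb with close peaks counted once, and, as the limit on distance itself dictates, 17.91 kb within 50 kb, 42.37 kb within 100 kb and 180.6 kb within 500 kb. The role list genes at a peak, 21, were 1 with a score of at least 100, 13 with the nearer gene only, 3 within 50 kb and 5 within 100 kb. These limits act by leaving out peaks or listings. In the other 33 combinations of result and alternative the value stayed within 1.5 times the one reported, the median fold and score among them; at a score of at least 100 no peak was left for the medians. No paired analysis was possible because each group is 1 library. Unknown depth and weak scores limit what can be said of single peaks.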
